A study of Homo sapiens with 6 samples.

Results

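The 10 genes described here encode the 5 subunits of the transcription factor NF-κB (NFKB1, NFKB2, REL, RELA and RELB) and 5 proteins that restrain its activation or are induced by it (NFKBIA, NFKBIB, NFKBIE, TNFAIP3 and BIRC3). They were taken by symbol from a table of 60748 genes, as a family chosen with earlier results of these data known. Each symbol matched 1 row. The human hepatic stellate cell line LX-2 was compared in 2 groups of 3 libraries each. LX-2FAP cells stably overexpressed FAP (fibroblast activation protein α, a membrane-bound serine protease of activated stromal cells) after infection with a lentivirus, and LX-2Vector cells were the negative control for that construct. Per the study's methods, the construct carried a ubiquitin (Ubi) promoter, EGFP and puromycin resistance, and cell clones were selected with puromycin. The number of clones is not given in the sources used here. Both groups were cultured for 24 hours. The labels name no cytokine or other treatment, and the groups differed by the labels in FAP alone. The labels do not say whether replicates were separate cultures, so that p-values measure the spread between these libraries, which may be technical.

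NF-κB proteins bind DNA as dimers. In resting cells the dimers are held in the cytoplasm by IκB proteins, and in the canonical pathway a kinase complex marks the IκB for destruction, so that dimers such as RELA with p50 reach the nucleus. In the noncanonical pathway, processing of the NFKB2 product p100 to p52 releases dimers of p52 with RELB. Several of the genes switched on encode IκBs, A20 and the subunits themselves, which makes the pathway a textbook case of feedback. In stellate cells the pathway is known for inflammatory gene expression and for survival.

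The libraries held 17355700 to 26352060 counts. The defining marker check was mixed. VIM was at 293.8 to 330.5 FPKM (fragments per kilobase of transcript, scaled to library size, a level per length) and COL1A1 at 21.8 to 36.8 FPKM, whereas COL1A2 had 143 counts, DES 4 and LRAT 0 over all 6 libraries together. Of the other stellate markers, COL3A1 was at 2.91 to 7.12 FPKM, PDGFRB at 2.38 to 3.73 FPKM and ACTA2 at 0.903 to 1.39 FPKM. ACTA2 had 433 counts over all 6 libraries. Markers of hepatocytes (ALB, 13 counts; APOA1, 1; TTR, 0) were at or near 0 over the same 6 libraries. The epithelial markers EPCAM, CDH1 and KRT19 had 24, 6 and 91 counts, the endothelial markers PECAM1, VWF and CDH5 had 546, 241 and 35, and the leukocyte markers PTPRC, CD14 and CSF1R had 676, 396 and 303. FAP itself was at 1.86, 2.39 and 2.59 CPM (counts scaled to library size) in LX-2Vector and 620.1, 842.8 and 706.7 CPM in LX-2FAP, a log2 fold change of 8.33 (SE 0.13). Of 18275 genes tested with edgeR's quasi-likelihood test, 967 (5.29%) passed a Benjamini-Hochberg adjusted p of 0.05, here termed called. Of all tested genes, 469 (2.57%) were called higher and 498 (2.73%) lower in LX-2FAP, and the median log2 fold change was -0.01.

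NF-κB dimers recognize the κB site, a stretch of about 10 bases. RefSeq promoter windows (GRCh38.p14) were available for 8 of the 10 genes, all but NFKBIE and RELB, and the 250 bases before each RefSeq start were searched on both strands for the κB decamer consensus. A match was found in 7 of 8 genes (87.5%), against 11.8% of all 27305 genes with a window and 15.6% of the 16538 genes whose windows fell in the same range of GC content. At least 2 matches were found in 3 of 8 (NFKB2, TNFAIP3 and BIRC3), against 0.974% of all genes. RELA had none. A gene counted if any of its windows did, and the number of windows per gene was not adjusted for. NFKB1, NFKB2 and NFKBIB each also had a window without a match. All matches are matches of letters and not measured binding. The stretches are printed along the strand of the gene, with the matching bases in capitals. Those of NFKB2 and NFKBIA are shown for the letters before RefSeq starts of called genes. The rest, added after the values were seen, are those of genes that were not called. Not called does not mean unchanged, and BIRC3 among them had a log2 fold change of -0.29. A match listed with 11 capitals is a pair of overlapping matches.
NFKB1, chr4:102501300-102501329, + strand: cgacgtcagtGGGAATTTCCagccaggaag
NFKB2, chr10:102394462-102394490, + strand: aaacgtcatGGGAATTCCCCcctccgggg
NFKB2, chr10:102394490-102394519, + strand: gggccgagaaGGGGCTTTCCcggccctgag
NFKB2, chr10:102395519-102395548, + strand: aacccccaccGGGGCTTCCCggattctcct
NFKB2, chr10:102395674-102395703, + strand: tggtattttcGGGACTTTCCtaagctgctc
REL, chr2:60881518-60881546, + strand: gtcagccgcGGGAAATTCCCctcccgcca
NFKBIA, chr14:35404811-35404840, - strand: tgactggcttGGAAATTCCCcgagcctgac
NFKBIB, chr19:38899932-38899960, + strand: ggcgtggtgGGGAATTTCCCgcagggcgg
TNFAIP3, chr6:137867188-137867217, + strand: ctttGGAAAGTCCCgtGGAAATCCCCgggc
BIRC3, chr11:102317275-102317304, + strand: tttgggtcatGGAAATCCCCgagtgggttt
BIRC3, chr11:102317339-102317368, + strand: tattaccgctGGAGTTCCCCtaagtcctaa

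The NFKB1 match lay 49 to 40 bases before the RefSeq start and the REL matches 47 to 37 bases before it. The 2 matches of TNFAIP3, 67 to 58 and 55 to 46 bases before the start, lay 2 bases apart. The 4 matching stretches of NFKB2 were divided between 2 alternative starts of the gene. In the GENCODE annotation the matches of NFKB2, REL, NFKBIB and TNFAIP3 lie inside the gene, past its first start. Those of NFKB1, NFKBIA and BIRC3 lie before it. Because NFKBIA had the largest fold change of the 10 genes, its whole upstream window is printed with the match, which lay 81 to 72 bases before the start, in capitals.
NFKBIA, chr14:35404750-35404999, - strand: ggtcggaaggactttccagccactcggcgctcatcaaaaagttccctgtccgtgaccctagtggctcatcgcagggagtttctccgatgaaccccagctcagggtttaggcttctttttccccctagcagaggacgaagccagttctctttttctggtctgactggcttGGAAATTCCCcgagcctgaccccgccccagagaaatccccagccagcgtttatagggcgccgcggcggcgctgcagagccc

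All 10 genes passed the filter on low counts. NFKB2, RELB and NFKBIA were lower in LX-2FAP cells by 19.2%, 21.1% and 24.9%, and none of the 10 was called higher. The 3 of 10 called lower stood against 2.73% of all tested genes. NFKB2, RELB, RELA, NFKBIA and NFKBIE, 5 of the 10, were lower in every LX-2FAP library than in every LX-2Vector library, against 13.4% of all tested genes. The log2 fold change was below 0 for 8 of the 10, with a median of -0.16, against 53.0% of all tested genes below 0. In bulk RNA, fewer cells carrying an RNA and less of that RNA per cell cannot be told apart. The calls rested on small groups. When LX-2FAP replicate 3 was left out, edgeR called 0 of the 10 and 26 genes in all (0.138% of those tested). When LX-2FAP replicate 2 was left out it called NFKB2 alone of the 10 and 129 genes in all (0.687%). When LX-2FAP replicate 1 was left out it called 5, NFKBIE and BIRC3 being the additions, and 1949 genes in all (10.4%).

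**Figure D1:**
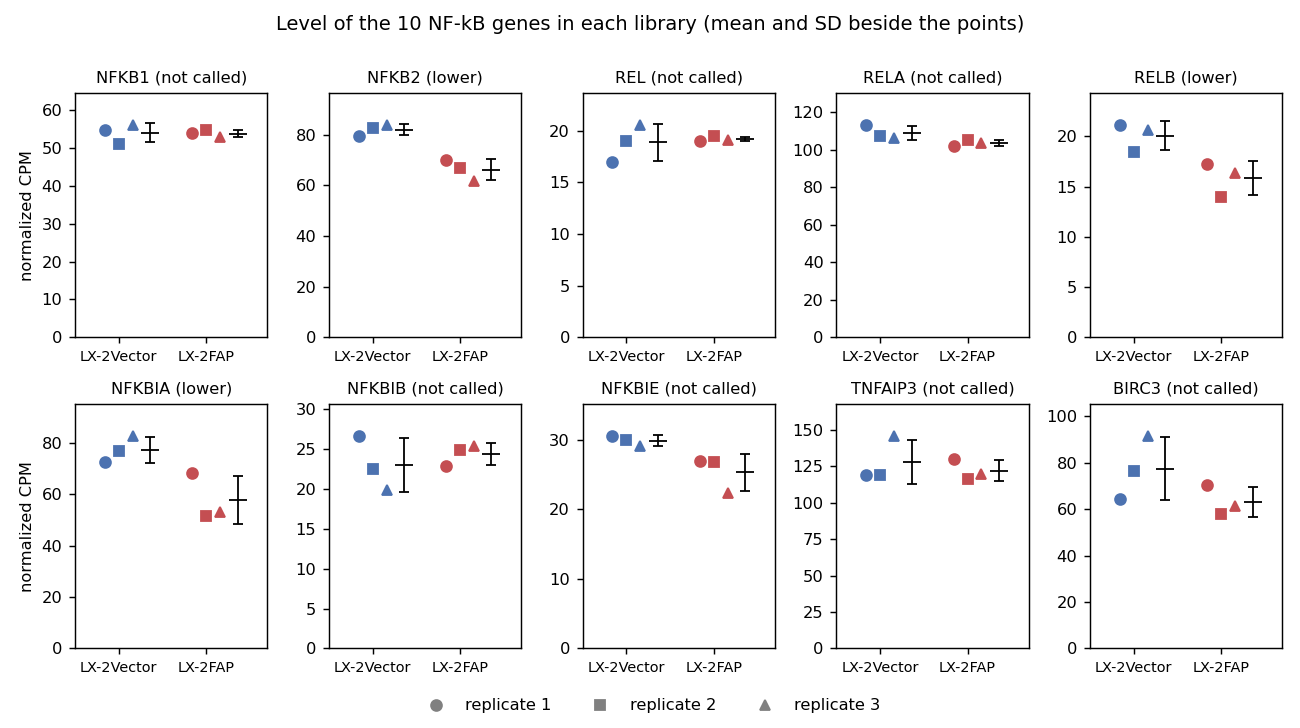
Each panel plots 1 gene, with normalized CPM on the vertical axis from 0 and the 6 libraries as points by group, shaped by replicate number, and the mean and SD of each group as a bar. The LX-2FAP points of NFKB2 (61.7 to 70.0 CPM) lie below all LX-2Vector points (79.5 to 83.8 CPM), whereas those of NFKB1 lie among them.

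The fold changes moved with base composition across the transcriptome, which bears on several of the 10 genes. Among tested genes whose longest transcript had a GC content of at least 60%, 8.28% were called lower and 0.0936% higher. Among genes under 40% GC the order was turned, with 0.24% called lower and 8.25% higher. The transcripts of RELB (65.4% GC), NFKB2 (62.4%), NFKBIE (61.0%) and NFKBIB (60.5%) were in the GC-rich class, RELA (57.1%) and NFKBIA (53.1%) in the class from 50% to 60%, where 4.21% were called lower, and REL (38.7%) and BIRC3 (34.8%) in the class under 40%. When the trend of fold change on GC content was removed, 2 of the 10 genes were called, NFKBIA and BIRC3, beside 856 of 17929 genes in all (4.77%), and the median of the 10 was -0.06. Whether the trend arose in the cells or in the libraries was not tested.

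**Figure D2:**
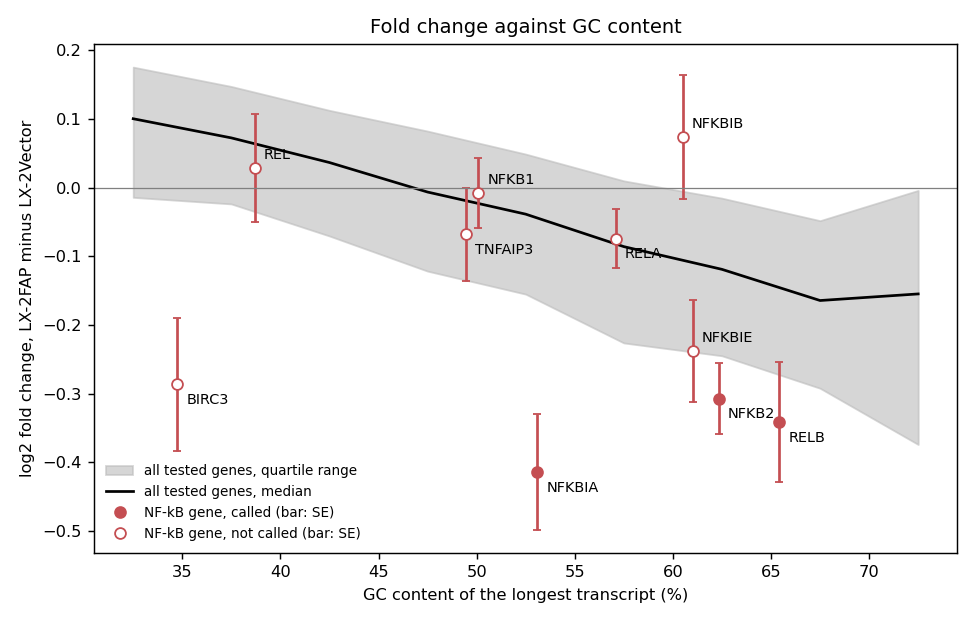
The horizontal axis gives the GC content of each gene's longest transcript in percent and the vertical axis the log2 fold change of LX-2FAP against LX-2Vector. The line and band are the median and quartile range of all tested genes in bins of GC content, and points are the 10 NF-κB genes with their SE, filled where called. The line falls from left to right. BIRC3, NFKBIA, NFKB2 and RELB stand below the band, with NFKB2 and RELB nearer to it.

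Among the subunits, the 2 of the noncanonical pathway were lower. NFKB2 (ENSG00000077150, chr10:102394110-102402529, + strand), which encodes p100 and its product p52, was at 79.5, 82.4 and 83.8 CPM in LX-2Vector and at 70.0, 66.7 and 61.7 CPM in LX-2FAP. Every LX-2FAP library lay below every LX-2Vector library. Its log2 fold change was -0.31 (SE 0.05, 95% CI -0.42 to -0.20, edgeR adjusted p = 0.00765). The sign held in all 15 alternatives and the call in 11 of them, with adjusted p from 1.63e-06 (no filter on low counts) to 0.113. With the GC trend removed the value was -0.15 (adjusted p = 0.0946), and without LX-2FAP replicate 3 it was -0.26 (adjusted p = 0.0775).

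RELB (ENSG00000104856, chr19:45001430-45038198, + strand), the subunit that pairs with p52 and is held by p100, was at 21.2, 18.5 and 20.6 CPM in LX-2Vector. In LX-2FAP it was at 17.2, 13.95 and 16.3 CPM, so that the groups did not overlap, although LX-2Vector replicate 2 and LX-2FAP replicate 1 stood close. The log2 fold change was -0.34 (SE 0.09, 95% CI -0.53 to -0.16, edgeR adjusted p = 0.0339). The call held in 8 of 15 alternatives, over which the adjusted p ran from 0.00239 (no filter on low counts) to 0.21. It was lost with the GC trend removed (-0.17, adjusted p = 0.21), and when certain single libraries were left out. The adjusted p was then 0.111 (LX-2Vector replicate 1), 0.0905 (LX-2Vector replicate 3), 0.155 (LX-2FAP replicate 2) and 0.141 (LX-2FAP replicate 3).

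The subunits of the canonical pathway did not pass the test. NFKB1 (ENSG00000109320, chr4:102501329-102617302, + strand), which encodes p105 and p50, was at 54.8, 51.2 and 56.2 CPM in LX-2Vector and at 54.1, 54.7 and 52.8 CPM in LX-2FAP. The groups overlapped fully, the log2 fold change was -0.01 (95% CI -0.12 to 0.10), and the edgeR adjusted p was 0.958. RELA (ENSG00000173039, chr11:65653596-65663094, - strand), which encodes the transactivating subunit p65, was at 113.4, 107.4 and 106.6 CPM in LX-2Vector and 102.3, 105.5 and 103.5 CPM in LX-2FAP. Its groups did not overlap, but the log2 fold change of -0.07 (95% CI -0.17 to 0.02, edgeR adjusted p = 0.339) was small, and it was 0.04 with the GC trend removed. REL (ENSG00000162924, chr2:60881521-60931610, + strand), which encodes c-Rel, the subunit best known from lymphocytes, was at 17.03, 19.03 and 20.6 CPM in LX-2Vector and at 19.1, 19.5 and 19.1 CPM in LX-2FAP. The 3 LX-2FAP values lay within the LX-2Vector range, with a log2 fold change of 0.03 (95% CI -0.14 to 0.20, edgeR adjusted p = 0.876). Of the REL exon bases in the GENCODE annotation, 43.3% are shared with AC010733.2 on the same strand, so that its count is uncertain.

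NFKBIA (ENSG00000100906, chr14:35401511-35404749, - strand) encodes IκBα, the inhibitor that NF-κB itself induces and that ends a canonical response. It was at 72.6, 76.6 and 82.6 CPM in LX-2Vector and at 68.4, 51.5 and 53.2 CPM in LX-2FAP. LX-2FAP replicate 1 stood close to the control range and the other 2 well below it, without overlap. The log2 fold change was -0.41 (SE 0.08, 95% CI -0.59 to -0.24, edgeR adjusted p = 0.0142), and with the GC trend removed it was -0.34 (adjusted p = 0.0308). The call held in 11 of 15 alternatives, with adjusted p from 1.48e-11 (no filter on low counts) to 0.119. Without that fit the lowest was 0.000109, with LX-2FAP replicate 1 left out. The call was lost without LX-2FAP replicate 2 (-0.34, adjusted p = 0.0707) or replicate 3 (-0.36, adjusted p = 0.108).

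NFKBIE and NFKBIB, the other 2 IκBs, were not called. NFKBIE (ENSG00000146232, chr6:44258166-44265788, - strand), which encodes IκBε, was at 30.55, 30.03 and 29.06 CPM in LX-2Vector and at 26.9, 26.9 and 22.3 CPM in LX-2FAP. The groups did not overlap and LX-2FAP replicate 3 was the lowest. The log2 fold change was -0.24 (SE 0.07, 95% CI -0.40 to -0.08) with an edgeR adjusted p of 0.0711, and it was -0.09 with the GC trend removed. It was called in 3 of 15 alternatives, 1 of them without LX-2FAP replicate 1 (adjusted p = 0.0339). The adjusted p over the alternatives ran from 0.0257 (no filter on low counts) to 0.465. NFKBIB (ENSG00000104825, chr19:38899700-38908893, + strand), which encodes IκBβ, was at 26.6, 22.5 and 19.8 CPM in LX-2Vector and at 22.8, 24.9 and 25.4 CPM in LX-2FAP. Its LX-2FAP values lay inside the control range, and the log2 fold change was 0.07 (95% CI -0.12 to 0.27, edgeR adjusted p = 0.692). With the GC trend removed NFKBIB was at 0.22, still not called (edgeR adjusted p = 0.155).

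TNFAIP3 and BIRC3 act upstream of the IκBs, on the signaling complexes at receptors. TNFAIP3 (ENSG00000118503, chr6:137867188-137883312, + strand) encodes A20, a ubiquitin-editing enzyme that shuts off the pathway. It was at 119.3, 118.9 and 145.7 CPM in LX-2Vector and at 129.8, 116.3 and 119.8 CPM in LX-2FAP, with LX-2Vector replicate 3 alone above the rest. Its log2 fold change was -0.07 (95% CI -0.21 to 0.08, edgeR adjusted p = 0.609). BIRC3 (ENSG00000023445, chr11:102317450-102339403, + strand) encodes cIAP2, a ubiquitin ligase that takes part in canonical signaling and in the turnover of the noncanonical kinase NIK. It was at 64.5, 76.5 and 91.5 CPM in LX-2Vector and at 70.3, 57.8 and 61.4 CPM in LX-2FAP, with LX-2FAP replicate 1 inside the control range. On the log2 scale the change was -0.29 (SE 0.10, 95% CI -0.49 to -0.08) with an edgeR adjusted p of 0.0931, and it was called in 4 of 15 alternatives. These included removal of the GC trend (-0.34, adjusted p = 0.0398), and leaving out LX-2Vector replicate 1 (-0.41, adjusted p = 0.0324) or LX-2FAP replicate 1 (-0.37, adjusted p = 0.0279). The adjusted p over the alternatives ran from 1.57e-05 (no filter on low counts) to 0.375. Without LX-2Vector replicate 3, its highest library, the value was -0.14.

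**Figure D3:**
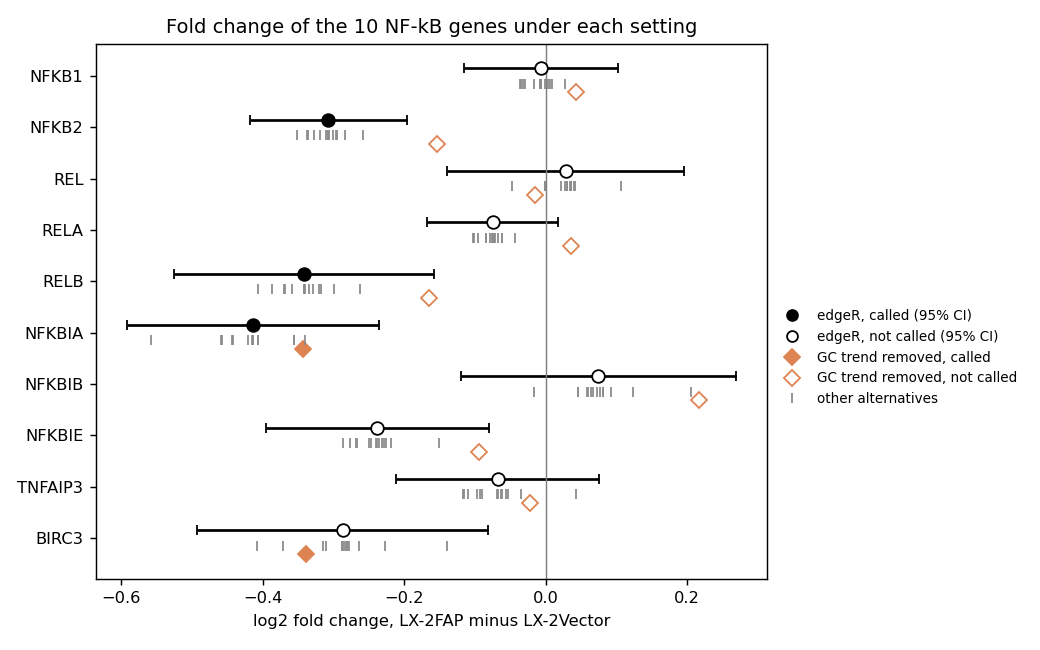
Rows are the 10 genes and the horizontal axis is the log2 fold change of LX-2FAP against LX-2Vector. Circles with bars are the edgeR values with 95% CI, diamonds the values with the GC trend removed (filled where called), and gray ticks the other 14 alternatives, including the 6 that leave out 1 library. The values of NFKB2, RELB, NFKBIA, NFKBIE and BIRC3 lie below 0 in every alternative, whereas those of NFKB1, REL, RELA, NFKBIB and TNFAIP3 fall on both sides.

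Levels were compared between genes in FPKM. In LX-2Vector NFKBIA stood highest at 32.8 ± 2.2 FPKM (SD, n = 3), followed by TNFAIP3 at 25.7, RELA at 20.1 and NFKB2 at 17.5 FPKM, each apart from its neighbors. NFKBIE (11.7), BIRC3 (10.4), NFKBIB (9.96) and NFKB1 (8.57 FPKM) formed a middle group in which neighbors overlapped. RELB (6.71) and REL (1.45 FPKM) were lowest, and RELB did not overlap with either neighbor. The FPKM values imply a length of 13172 bases for REL and 3016 for RELB. In CPM, not divided by length, REL (17.03 to 20.6) and RELB (18.5 to 21.2) overlapped in LX-2Vector. In FPKM the feedback genes NFKBIA and TNFAIP3 thus stood above every subunit in the control cells.

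Because both genes of a ratio come from the same library, ratios do not depend on the library size. They were chosen after the values of the genes were seen and carry no test. The ratio of NFKB2 to NFKB1 FPKM was 1.96, 2.17 and 2.01 in LX-2Vector and 1.75, 1.64 and 1.57 in LX-2FAP, without overlap. RELB over RELA was 0.338, 0.311 and 0.351 in LX-2Vector and 0.305, 0.240 and 0.286 in LX-2FAP, again without overlap. Both pairs set a noncanonical against a canonical subunit, and in both the first gene has the higher GC content, which was not removed here.

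NFKBIA over RELA was 1.48, 1.64 and 1.78 in LX-2Vector and 1.54, 1.12 and 1.18 in LX-2FAP, with LX-2FAP replicate 1 inside the control range. The summed FPKM of the 5 subunits was 54.4 ± 0.9 in LX-2Vector and 47.6 ± 1.1 in LX-2FAP (SD, n = 3). That of the 3 IκBs was 54.5 ± 0.58 and 44.1 ± 3.93. The ratio of the IκB sum to the subunit sum was 0.988, 1.02 and 1.00 in LX-2Vector and 0.997, 0.889 and 0.890 in LX-2FAP, so that 2 of 3 LX-2FAP libraries stood below the control range. Within the subunit sum the share of NFKB2 was 32.2% ± 1.16 in LX-2Vector and 29.1% ± 1.25 in LX-2FAP, and that of NFKB1 was 15.8% ± 0.47 and 17.6% ± 0.30.

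**Figure D4:**
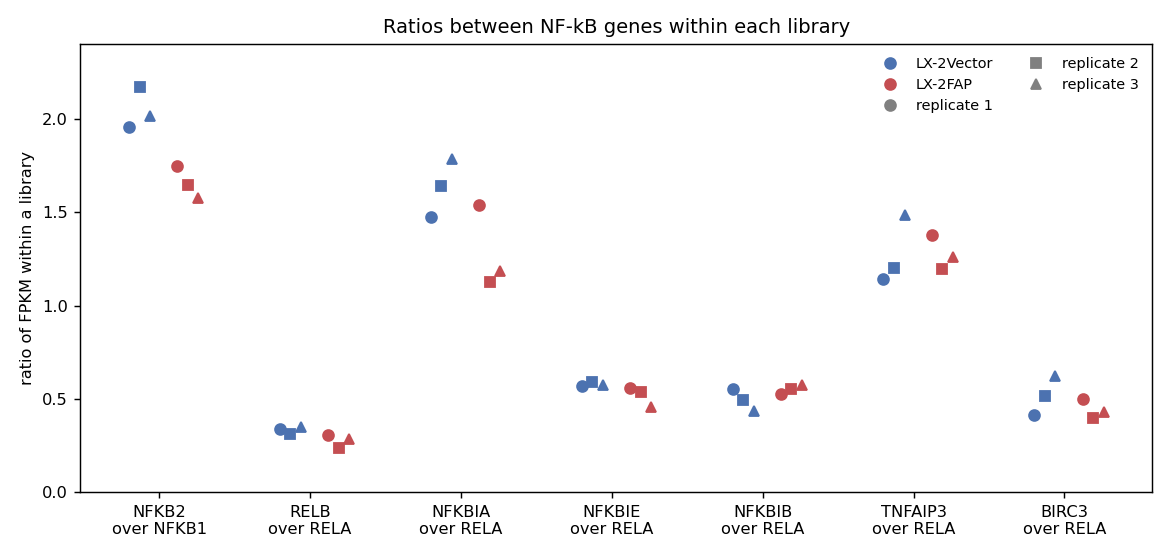
The vertical axis is the ratio of 2 genes' FPKM within 1 library, from 0, for 7 pairs of genes, with 3 LX-2Vector and 3 LX-2FAP libraries shown as points shaped by replicate number. The LX-2FAP points of NFKB2 over NFKB1 (1.57 to 1.75) lie below the LX-2Vector points (1.96 to 2.17), whereas those of TNFAIP3 over RELA overlap.

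The deviations of the 10 genes from their group means over the 6 libraries did not share 1 pattern. Of 45 pairs, 26 had a positive Pearson's r and the median r was 0.19. Single pairs ran from -0.965 (NFKBIB with BIRC3) to 0.903 (RELA with NFKBIB). These values are a description over 6 libraries, and all genes of a library share its depth.

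The rest of the pathway was read from 5 lists of 88 genes, of which 85 were tested and 10 called (11.8%, 2 higher and 8 lower), against 5.29% of all tested genes. An unadjusted p under 0.05 was found for 4054 of all 18275 tested genes (22.2%). Of the 13 kinases and their partners edgeR called none (4 of 13 at an unadjusted p under 0.05, or 30.8%). The list holds the IκB kinase genes CHUK, IKBKB and IKBKG and the NIK gene MAP3K14. Their median log2 fold change was 0.01, and the lowest p was that of TAB1, which encodes a partner of the kinase TAK1 (-0.21, adjusted p = 0.0605). Of the 20 receptors and adaptors edgeR also called none (4 of 20 at an unadjusted p under 0.05, or 20.0%), with a median of -0.07. Here the lowest p was that of TNFRSF1B, encoding TNF receptor 2 (-0.25, adjusted p = 0.0516). With limma on FPKM no gene of the 5 lists was called, whereas 2 genes were called in all.

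Of 16 ubiquitin enzymes and their partners, 2 were called in opposite directions. ZC3H12A, encoding the RNase regnase-1, fell from 20.4, 20.2 and 21.2 CPM to 17.9, 15.5 and 15.9 CPM (-0.33 on the log2 scale, SE 0.08, edgeR adjusted p = 0.0246). TAX1BP1, encoding an adaptor of A20, rose from 150.2, 153.5 and 153.6 CPM to 164.0, 170.5 and 170.7 CPM (0.14, SE 0.04, edgeR adjusted p = 0.0481). Among 7 nuclear IκBs and other IκB- or NF-κB-binding proteins, BCL3 alone was called (14.3%). It was also the only 1 of the 7 at an unadjusted p under 0.05. BCL3, a nuclear IκB that binds p50 and p52 dimers, fell from 8.40, 8.15 and 9.12 CPM to 7.01, 5.95 and 5.82 CPM (-0.45, SE 0.11, edgeR adjusted p = 0.0293). With the GC trend removed ZC3H12A (adjusted p = 0.141) and BCL3 (adjusted p = 0.155) were not called and TAX1BP1 was (adjusted p = 0.0174). Leaving out any 1 library but LX-2FAP replicate 1 ended the calls of ZC3H12A (adjusted p 0.051 to 0.154), BCL3 (0.0504 to 0.177) and TAX1BP1 (0.0823 to 0.246). TAX1BP1 was called in 5 of 15 alternatives, and was also lost with library size alone (adjusted p = 0.101) and with no filter on low counts (adjusted p = 0.0522).

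Of 32 known target genes 29 were tested, all but CCL20, CXCL10 and VCAM1. MMP9, ICAM1, SOD2, TRAF1, TNFAIP2 and NINJ1 (6 genes) were called lower and IL1B (1 gene) higher, or 24.1% of those tested against 5.29% of all genes. An unadjusted p under 0.05 was found for 16 of 29 (55.2%, against 22.2% of all genes). The median log2 fold change was -0.14, with 22 of 29 below 0 (75.9%, against 53.0% of all genes). MMP9, encoding a gelatinase, was at 19.3, 19.6 and 25.1 CPM in LX-2Vector and at 14.6, 9.90 and 10.4 CPM in LX-2FAP (-0.86, SE 0.13, edgeR adjusted p = 0.0044). ICAM1, encoding a leukocyte adhesion molecule, was at 25.5, 24.0 and 29.7 CPM and at 21.6, 16.5 and 15.6 CPM (-0.55, SE 0.11, edgeR adjusted p = 0.0122). In both, LX-2FAP replicate 1 was the highest of its group, as it was for NFKBIA, and no library overlapped with the other group.

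SOD2, encoding the mitochondrial superoxide dismutase, was at 448.4, 493.8 and 583.2 CPM in LX-2Vector and at 421.6, 331.0 and 353.9 CPM in LX-2FAP (-0.46, SE 0.09, edgeR adjusted p = 0.00957). TRAF1, encoding an adaptor of TNF receptors, fell by 0.45 on the log2 scale (adjusted p = 0.0134), TNFAIP2 by 0.38 (adjusted p = 0.00823) and NINJ1, encoding a protein of membrane rupture, by 0.30 (adjusted p = 0.0417). IL1B, which encodes the cytokine interleukin-1β, was at 33.84, 36.01 and 34.56 CPM in LX-2Vector and at 42.3, 40.2 and 43.4 CPM in LX-2FAP (0.27, SE 0.06, edgeR adjusted p = 0.0152). IL1B and CSF2 belong to a set of secreted factors that the study chose on these samples, so that the direction of IL1B is no independent evidence. The study also reported IL1B as higher in LX-2FAP by RT-qPCR. CSF2 was at 0.40 and was not called here (edgeR adjusted p = 0.147). With the GC trend removed NINJ1 was not called (adjusted p = 0.131) and the other 6 of the 7 called target genes were. Without LX-2FAP replicate 3, MMP9 (adjusted p = 0.0487) was the only one of these 7 called, the others being at 0.0748 to 0.246. ICAM1 was also lost without LX-2FAP replicate 2 (adjusted p = 0.0615), and NINJ1 without any library but LX-2FAP replicate 1 (0.0513 to 0.246). Of the exon bases of ICAM1 and MMP9, 23.6% and 18.4% overlap with genes on the other strand, and whether counting used strand is not given in the sources used here, so that reads of these partners cannot be told apart.

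A κB decamer match was present in the 250 upstream bases of 11 of 25 target genes with a window (44.0%), 3 of 7 nuclear IκBs and binding proteins (42.9%), 2 of 12 kinases and partners (16.7%), 3 of 17 receptors and adaptors (17.6%) and 3 of 15 ubiquitin enzymes (20.0%). These shares stood beside 87.5% of the subunit and inhibitor genes and 11.8% of all genes. NFKB1, REL, NFKBIB, TNFAIP3 and BIRC3 held a match and were not called.

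**Figure D5:**
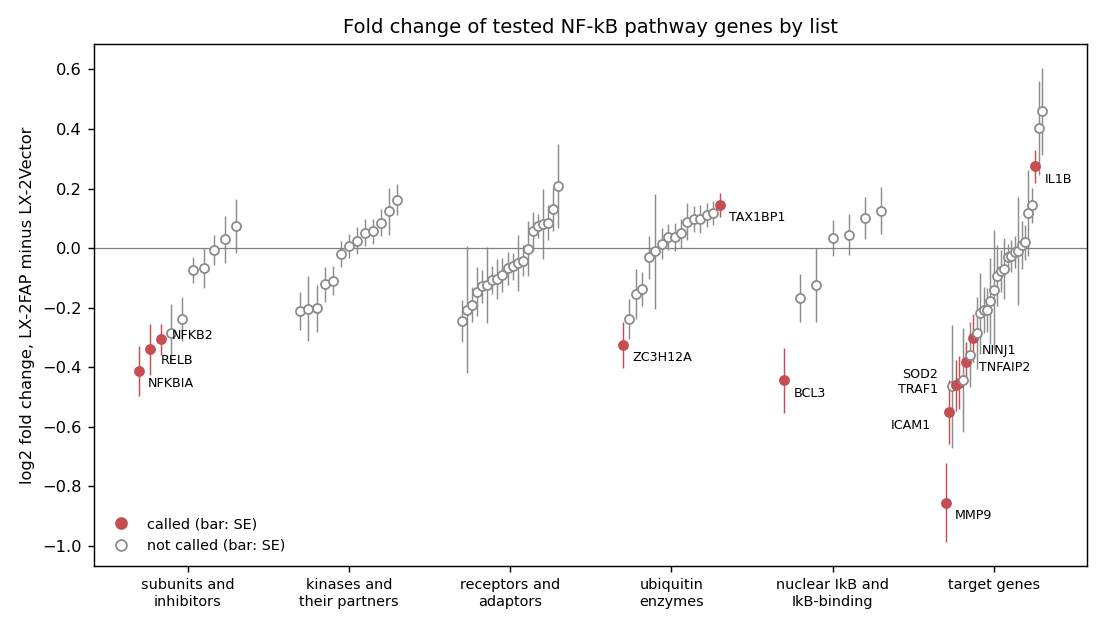
The vertical axis is the log2 fold change of LX-2FAP against LX-2Vector, with each tested gene as a point with its SE, grouped in columns by list and filled in red where called by edgeR. Called genes stand mainly in the columns of subunits and inhibitors (3 of 10) and target genes (7 of 29), against 5.29% of all tested genes. The columns of kinases and of receptors hold none.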

How the data were processed

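RNA-seq was performed on LX-2Vector and LX-2FAP cells (n = 3 libraries each). Per the labels, libraries were made from rRNA-depleted RNA, whereas the methods also name poly(A) isolation. Counts per gene and FPKM were deposited by the authors, who aligned paired-end reads with HISAT2 (2.0.5), counted reads per gene with featureCounts (1.5.0-p3), and ran their own comparisons with DESeq2 (1.16.1) and edgeR. The labels name build hg18, and the strand setting is not given in the sources used here. The files hold no coordinates for these genes, so positions come from GENCODE 29 (GRCh38) and promoter sequences from RefSeq (GRCh38.p14). Of 60748 gene rows, 58337 IDs matched GENCODE. Columns of the authors' own comparisons (fold changes, p-values) were not used.

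Counts as deposited were filtered (edgeR filterByExpr, minimum count 10, minimum total 15), scaled by TMM and tested with edgeR's quasi-likelihood test (4.0.16, R 4.3.3) over all 18275 genes, with Benjamini-Hochberg adjustment and a threshold of 0.05. CPM values are TMM-scaled. The script was tested on simulated data. Alternatives were DESeq2 (1.42.0), its size factors, library size alone, no filter, at least 10 counts in every library, limma-trend (3.58.1) on log2(FPKM + 1) and log2(FPKM + 0.1), a replicate block, removal of the GC trend (loess, span 0.5, on the longest transcript), other thresholds (adjusted 0.01, unadjusted 0.05) and leaving out each library. Replicates differed by more than sampling noise (chi-square per degree of freedom 2.02 to 4.99). With 3 libraries a group an exact permutation test cannot go below p = 0.1, so that single ratios carry no test.

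The 10 genes and the 5 pathway lists were chosen with earlier results of these data known. Named were all 10 genes, FAP, and in each list every called gene or, where none was called, the gene with the smallest p.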

Additional observations from a re-analysis of the deposited data

How the results depend on the processing

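FAP was called in all 15 alternatives. Without a filter on low counts 1606 genes, 5 of the 10 NF-κB genes (5 lower) were called. With limma-trend on log2(FPKM + 1) or log2(FPKM + 0.1), 2 genes in all were called (0.0109% of those tested), 0 of the 10 (0 lower) and 0 pathway genes. With the GC trend removed the median log2 fold change of the 10 was -0.0577, and NFKB1 (0.0433), RELA (0.0361) and REL (-0.0146) changed sign. NFKB1 was at 0.006 with DESeq2. REL was at -5.89e-08 with library size alone, -0.00116 with limma at FPKM + 1 and -0.00033 at FPKM + 0.1. At an adjusted p of 0.01, 1 of the 10 passed, and at an unadjusted p of 0.05, 5. Leaving out 1 library each gave 0 to 5 of the 10 called (0 to 5 lower), 26 to 1949 genes in all and 1 to 19 pathway genes. Over the same 6 fits the log2 fold change ran from -0.0352 to 0.0274 for NFKB1, -0.0471 to 0.106 for REL, -0.0166 to 0.206 for NFKBIB and -0.117 to 0.0424 for TNFAIP3. The cause of these differences was not tested. With the replicate block 975 genes were called, 3 of the 10 among them, TAX1BP1 (adjusted p = 0.0539) was not called and TNFRSF1B (adjusted p = 0.0482) was. Libraries with the same number did not deviate together (r = -0.039, 0.044 and -0.01), and not every library correlated best with its own number. The highest r, 0.122, was between LX-2Vector replicate 3 and LX-2FAP replicate 1. No pairing by number was thus seen. Deviations from a mean of 3 libraries depend on each other, so that the check cannot exclude a pairing.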
